A study of Mus musculus with 4 samples.

Results

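The genes described here are 36 imprinted genes that lie outside the Igf2 locus, out of 24493 gene symbols measured by RNA sequencing in cultured mouse liver cells. They were taken by symbol from a list of known imprinted genes, and all 36 had a row. They were grouped into 14 imprinted domains and by the parental allele they are known to be expressed from: 19 paternally expressed, 15 maternally expressed and 2 (Gnas and Blcap) whose allele depends on the transcript. The study compared 2 groups of cells of C57BL/6 origin, with no treatment in either. Bil_2D was made of biliary cells derived from hepatocytes and kept in 2D culture (n = 2), and Hep_3D of hepatocytes kept in 3D culture (n = 2). In both groups replicate 1 came from clone 15C7 and replicate 2 from clone 19H5, so each group held 1 library of each clone. Culture format and cell state changed together in every library and cannot be told apart. The labels do not say whether the clones came from separate animals, and p-values therefore measure only how these libraries spread, which may be partly technical.

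An imprinted gene is transcribed mainly from the copy inherited from the mother or mainly from the copy inherited from the father. The choice is set by DNA methylation laid down in the germ line at an imprinting control region, which is then kept through later cell divisions by DNMT1, UHRF1 and the ZFP57 and TRIM28 proteins, and a long noncoding RNA often silences the neighbouring genes on the same chromosome. Many imprinted genes act in fetal growth, are abundant in fetal liver and fall after birth. The deposited values are levels per gene and do not separate the parental alleles, so nothing below measures imprinting itself.

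Values are TPM, a length-corrected share of transcripts that sums to 1000000 in each library and keeps no sequencing depth. In such bulk samples, fewer cells expressing a gene and less RNA per cell cannot be told apart. A gene was tested when it had at least 1 TPM in at least 2 libraries, which 12336 genes did, and called at an adjusted p under 0.05 in limma on log2(TPM + 1). Of all genes tested, 58.7% were called on the TPM scale, 51.9% lower in Hep_3D and 6.8% higher. The median log2 fold change (Hep_3D minus Bil_2D throughout) was -0.73 on that scale. The results are therefore also set on a median-of-ratios scale, which divides each library by a size factor so that this median is -0.02. On it 21.4% of all genes were called, 9.54% lower and 11.9% higher. "Fell" and "rose" refer to the TPM scale unless the other is named. Of 12 hepatocyte markers 9 rose and 0 fell on both scales, and of 10 biliary markers 5 fell and 1 rose, or 3 and 1 by median of ratios. Epcam, a defining biliary marker, was low in every library (0.439 to 2.59 TPM), and Cftr was listed at 0 in both Hep_3D libraries and under 0.1 TPM in Bil_2D. Many imprinted genes are abundant in mesenchymal cells. The summed level of 13 mesenchymal markers was 2.74 and 1.46 TPM in Bil_2D against 2.41 and 1.07 TPM in Hep_3D, and that of 9 endothelial markers was at most 0.437 TPM in any library. Among 9 leukocyte markers, Cd68 had the highest level, at 4.50 and 11.7 TPM in Bil_2D against 0.674 and 1.74 TPM in Hep_3D, while Ptprc was at most 0.0598 TPM and Cd3e was listed at 0 in all 4 libraries. The summed level of these 9 was 7.65 and 14.2 TPM in Bil_2D against 3.15 and 3.59 TPM in Hep_3D, and its part in the results below was not tested.

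Many of the imprinted genes were low, as were many of all genes. Of the 36, 15 stayed under 1 TPM in every library, beside 11310 of all 24493 genes. The filter was passed by 19, which were tested, beside 12336 of all genes, and 12 reached 5 TPM in at least 1 library. The number at 1 TPM or more was 21 and 15 in the Bil_2D libraries (replicate 1 first, here and below) and 17 and 13 in those of Hep_3D. Gnas, Peg3 and Cd81 together held 86.1% and 85.1% of the summed level of the 36 genes in Bil_2D and 80.1% and 78.5% in Hep_3D. That sum was 0.156% and 0.117% of all TPM in Bil_2D, against 0.0685% and 0.0587% in Hep_3D.

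**Figure D1:**
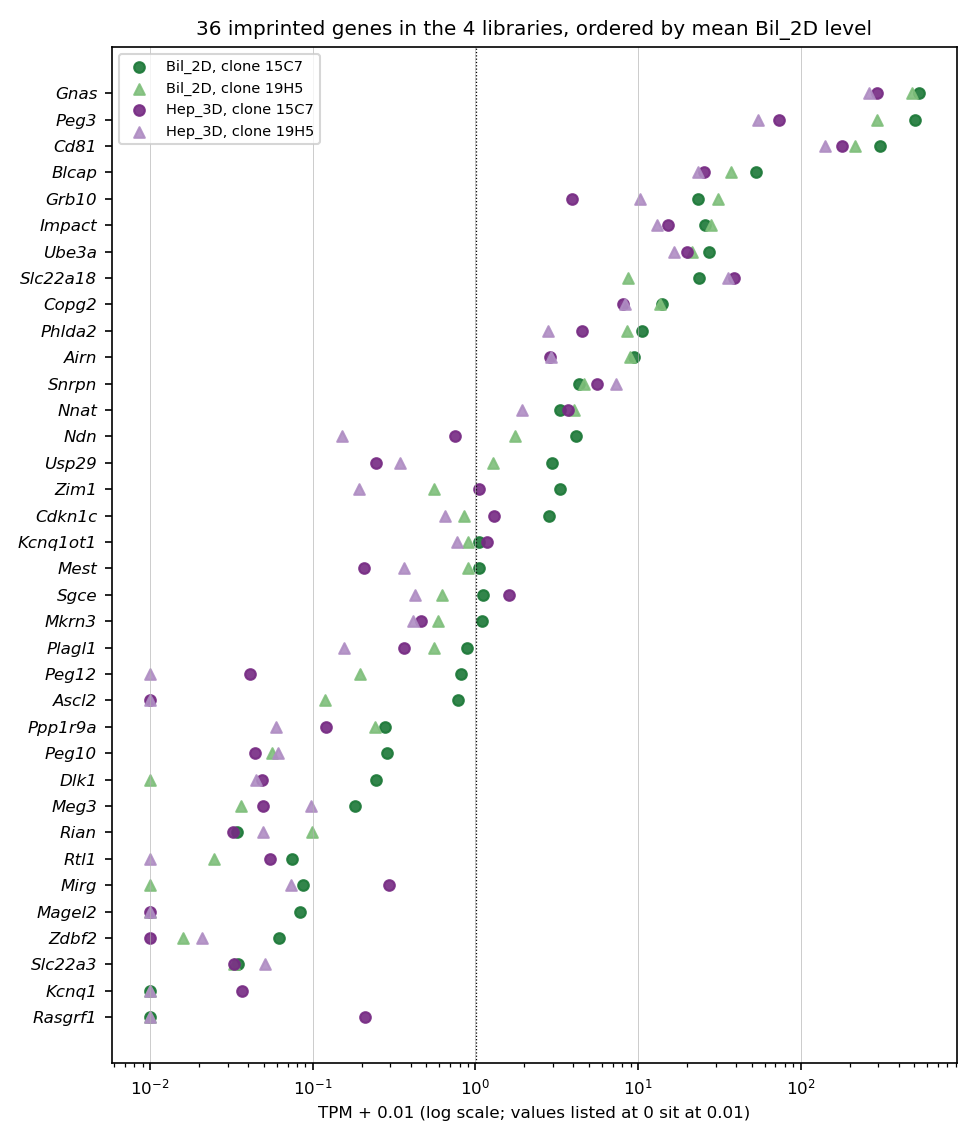
TPM of each of the 36 imprinted genes in each of the 4 libraries, plotted as TPM + 0.01 on a log axis (values listed at 0 sit at 0.01); green points are Bil_2D, purple points Hep_3D, circles clone 15C7 and triangles clone 19H5, and the dotted line marks 1 TPM. Gnas, Peg3 and Cd81 stand above the others, Peg3 shows a wide gap between the groups, and 15 genes lie left of the dotted line in every library.

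On the TPM scale 10 of the 19 imprinted genes tested fell and 0 rose, beside 51.9% and 6.8% of all genes. Those that fell were Peg3, Usp29, Grb10, Ndn, Airn, Phlda2, Impact, Gnas, Blcap and Copg2. Their share is close to that of all genes, and the median log2 fold change of the 19 was -0.73, the same to this precision as that of all genes. On the median-of-ratios scale 1 fell (Peg3) and 2 rose (Slc22a18 and Snrpn), the median was -0.04, and 11 of the 19 were below 0. With clone as a replicate block 11 fell and 1 rose on the TPM scale, beside 66.1% of all genes called, and 2 fell and 2 rose on the median-of-ratios scale, beside 25.9%. By TPM the groups did not overlap for 14 of the 19 genes, 12 lower and 2 higher in Hep_3D, beside 83% of all genes, 71.9% lower. The groups did not overlap on the median-of-ratios scale for 11 of the 19 genes, 6 lower and 5 higher in Hep_3D, beside 68.3% of all genes tested, 34.7% lower and 33.6% higher. Single libraries mattered: the number that fell on the TPM scale was 1 and 4 when Bil_2D replicates 1 and 2 were left out in turn, and 6 and 3 when those of Hep_3D were. On the median-of-ratios scale 0 fell in each of the 4 leave-outs, and 1 rose without Bil_2D replicate 1 and 0 in the other three.

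**Figure D2:**
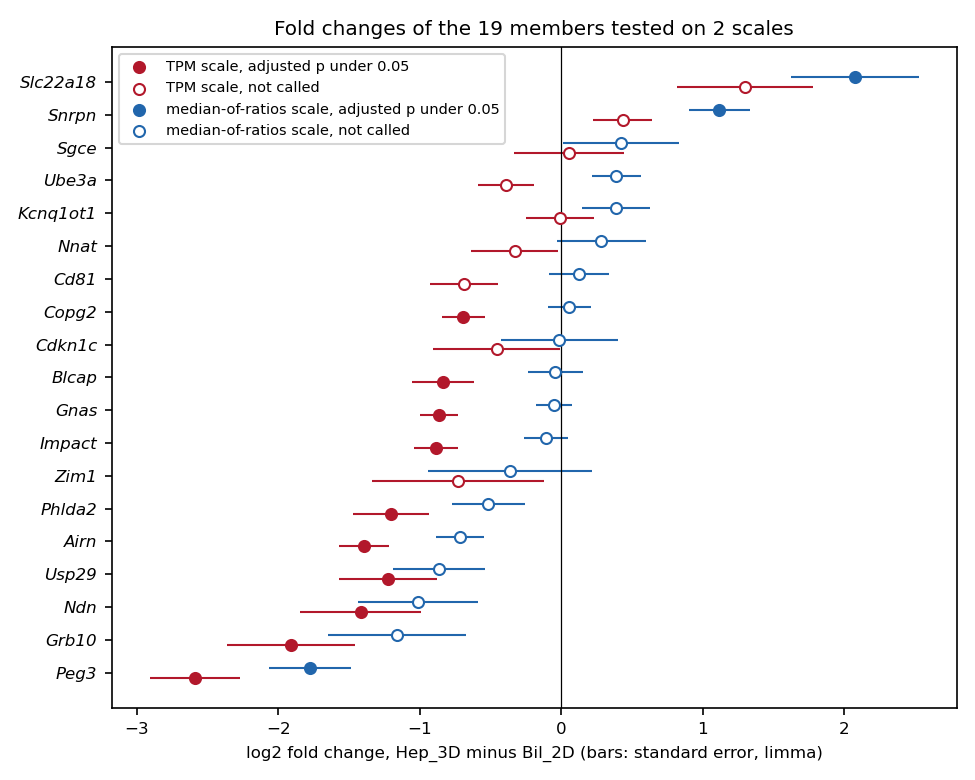
Log2 fold change (Hep_3D minus Bil_2D) with its standard error from limma for each of the 19 imprinted genes tested, in red on the TPM scale and in blue on the median-of-ratios scale; filled points have an adjusted p under 0.05. Peg3 is filled on both scales, at -2.59 and -1.78, Slc22a18 and Snrpn are filled in blue only, and Gnas, Blcap, Impact and Copg2 move close to 0 in blue.

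**Figure D3:**
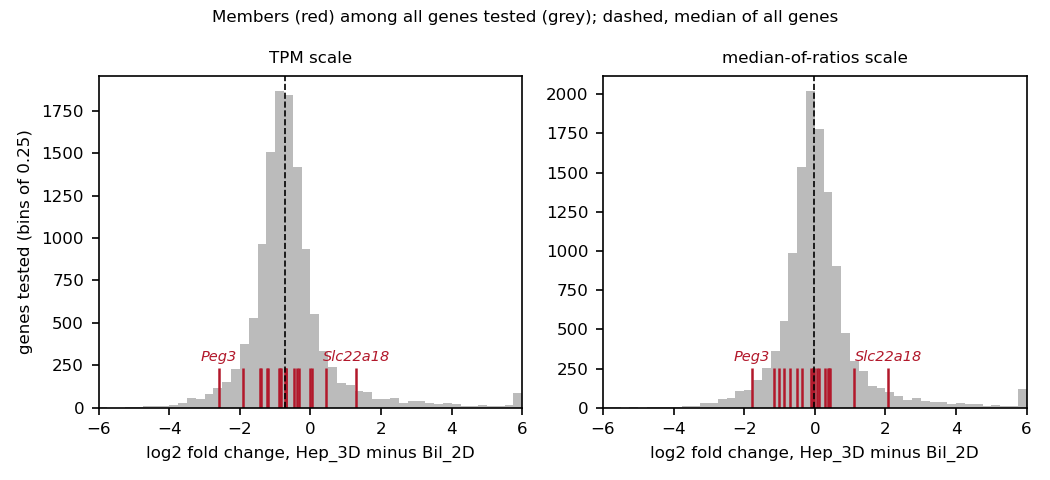
Histograms of the log2 fold changes of all 12336 genes tested on the 2 scales (values beyond the axis are counted in the end bins), with the 19 imprinted genes as red ticks and the median of all genes as a dashed line. The ticks spread around the dashed line on both scales, with Peg3 in the lower tail and Slc22a18 in the upper tail.

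Peg3 had the largest change of the 19 genes tested in log2(TPM + 1). By median of ratios the largest was the rise of Slc22a18, at 2.08, beside -1.78 for Peg3. The added 1 shrinks the change of less abundant genes, and the mean TPM itself fell 6.23-fold for Peg3, 7.44-fold for Usp29 and 6.69-fold for Ndn. The Peg3 domain holds Peg3 and Usp29, which are paternally expressed, and Zim1, which is maternally expressed. Peg3 encodes a zinc finger DNA-binding protein (chromosome 7, 6703892 to 6730462, GRCm38.p6). Its level was 503 TPM in replicate 1 and 296 TPM in replicate 2 of Bil_2D, against 73.8 and 54.5 TPM in Hep_3D. Both Bil_2D libraries lay above both Hep_3D libraries, and clone 15C7 was the higher in each state. Peg3 was the gene of rank 310 and 499 by TPM in the Bil_2D libraries and of rank 1343 and 1756 in the Hep_3D libraries. The mean fell 6.23-fold, to 64.1 ± 13.7 from 400 ± 146 TPM (SD, n = 2), a log2 fold change of -2.59 (SE 0.32, adjusted p = 0.00703 in limma). This put it at the 2.89 percentile of all genes tested. Its median-of-ratios levels were 368 and 229 in Bil_2D and 96 and 73.5 in Hep_3D, and it fell by 1.78 there (SE 0.29, adjusted p = 0.0263). The TPM-scale call held as each library was left out (adjusted p = 0.0344 to 0.0412), while that on the median-of-ratios scale was lost in each leave-out (0.0781 to 0.114, with log2 fold changes of -1.43 without Bil_2D replicate 1 to -2.12 without Bil_2D replicate 2).

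Usp29 encodes a ubiquitin-specific protease and is read from the opposite strand, starting beside Peg3 (chromosome 7, 6730559 to 6967220). It was far less abundant, at 2.96 and 1.27 TPM in Bil_2D and 0.233 and 0.335 TPM in Hep_3D. The groups did not overlap. Peg3 exceeded it by 170 and 233 times in Bil_2D and by 316 and 162 times in Hep_3D, a ratio that overlapped between groups. Usp29 fell on the TPM scale (log2 fold change -1.22, adjusted p = 0.0404 in limma) and did not pass by median of ratios (-0.86, adjusted p = 0.131). Its TPM-scale call was lost without Bil_2D replicate 1 (0.108), Hep_3D replicate 1 (0.134) and Hep_3D replicate 2 (0.116), with a pseudocount of 5 (0.0593) and without the filter (0.0571). Zim1, a zinc finger gene 7351 bases beyond the far end of Peg3 (chromosome 7, 6674444 to 6696540), had 3.30 and 0.545 TPM in Bil_2D and 1.04 and 0.183 TPM in Hep_3D. Its groups overlapped and it did not pass (log2 fold change -0.73, adjusted p = 0.346, and -0.36, adjusted p = 0.685, by median of ratios). The fold change was 0.00907 without Bil_2D replicate 1. Usp29, Zim1 and Ndn lie under 5 TPM and were named after their values were seen.

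The start sites of Peg3 and Usp29 are 164 bases apart on opposite strands, and the 250 bases before each start are shown because both genes were lower in Hep_3D. They come from RefSeq for GRCm38.p6, are written 5′ to 3′ on the strand of each gene, and carry CpG dinucleotides, the sites of DNA methylation, in capitals. The windows share 163 bases, read from opposite strands. The starts used, 6730419 for Peg3 and 6730583 for Usp29, lie inside the gene spans given above. Each window therefore runs partly over the stated span of its own gene. The Peg3 window (chr7:6730420-6730669, minus strand) holds 8 CpGs and the Usp29 window (chr7:6730333-6730582, plus strand) holds 14.
Peg3: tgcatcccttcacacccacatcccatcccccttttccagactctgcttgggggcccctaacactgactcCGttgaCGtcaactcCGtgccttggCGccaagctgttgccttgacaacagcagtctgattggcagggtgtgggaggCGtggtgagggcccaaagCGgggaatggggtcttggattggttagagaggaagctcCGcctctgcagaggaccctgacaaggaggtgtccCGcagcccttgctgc
Usp29: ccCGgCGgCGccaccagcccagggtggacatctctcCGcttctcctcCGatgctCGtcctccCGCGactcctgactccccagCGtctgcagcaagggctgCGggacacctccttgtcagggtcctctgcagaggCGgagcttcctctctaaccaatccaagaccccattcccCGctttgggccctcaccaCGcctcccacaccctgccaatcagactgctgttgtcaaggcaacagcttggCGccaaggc

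The Kcnq1 domain, at the distal end of chromosome 7, held members whose fold changes lay on both sides of 0. Kcnq1ot1, the paternally expressed noncoding RNA that silences its neighbours, had 1.05 and 0.896 TPM in Bil_2D and 1.17 and 0.760 TPM in Hep_3D. The groups overlapped and it did not pass (log2 fold change -0.01, adjusted p = 0.970 in limma). By median of ratios both Hep_3D libraries were above both Bil_2D libraries, and it did not pass there either (0.39, adjusted p = 0.305). It lies wholly within Kcnq1 and on the other strand. The labels do not say whether strand was kept in counting, so reads of the pair cannot be told apart. Kcnq1, a potassium channel gene, had 0.0266 TPM in Hep_3D replicate 1 and was listed at 0 in the other three libraries.

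Slc22a18 encodes an organic cation transporter-like membrane protein and is maternally expressed (chromosome 7, 143473726 to 143499334). It had 23.8 and 8.68 TPM in Bil_2D and 38.7 and 35.8 TPM in Hep_3D. Both Hep_3D libraries were above both Bil_2D libraries, and the Bil_2D libraries differed more from each other than the Hep_3D libraries did. The difference did not pass on the TPM scale (16.2 ± 10.7 against 37.2 ± 2.05 TPM, SD, n = 2; log2 fold change 1.30, SE 0.48, limma adjusted p = 0.0773). It passed there with a replicate block for clone (adjusted p = 0.0488) and without Bil_2D replicate 1 (1.98, adjusted p = 0.0395), and the fold change was 0.62 without Bil_2D replicate 2. Slc22a18 rose by 2.08 by median of ratios (SE 0.45, adjusted p = 0.0437). Without a library that call held only without Bil_2D replicate 1, and the highest adjusted p among the 4 leave-outs was 0.160. Phlda2, the next gene along, 2210 bases beyond (chromosome 7, 143501545 to 143503145), encodes a small pleckstrin homology-like protein that restrains placental growth and is also maternally expressed. It had 10.6 and 8.57 TPM in Bil_2D and 4.52 and 2.78 TPM in Hep_3D, without overlap. Phlda2 fell by 1.21 on the TPM scale (SE 0.27, adjusted p = 0.022), a call lost without Bil_2D replicate 1 (0.110), Bil_2D replicate 2 (0.0741) and Hep_3D replicate 2 (0.0768). By median of ratios it stood at -0.51 (adjusted p = 0.218). The ratio of Slc22a18 to Phlda2, which no scaling of libraries alters, was 2.25 and 1.01 in Bil_2D and 8.56 and 12.9 in Hep_3D.

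The 250 bases before a RefSeq start of each of these neighbours are shown. The reason is that Slc22a18 was higher and Phlda2 lower in both Hep_3D libraries than in either Bil_2D library. The starts used, 143473789 for Slc22a18 and 143502524 for Phlda2, lie inside the gene spans given above. The Phlda2 window therefore lies wholly within the stated span of Phlda2, and that of Slc22a18 partly within its own. The Slc22a18 window (chr7:143473539-143473788, plus strand) holds 0 CpGs and the Phlda2 window (chr7:143502525-143502774, minus strand) holds 21, again in capitals and 5′ to 3′ on the strand of the gene.
Slc22a18: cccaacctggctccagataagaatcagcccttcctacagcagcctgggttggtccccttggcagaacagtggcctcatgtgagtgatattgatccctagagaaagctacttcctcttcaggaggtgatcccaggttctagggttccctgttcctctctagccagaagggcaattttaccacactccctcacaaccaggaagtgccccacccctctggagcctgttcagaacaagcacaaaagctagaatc
Phlda2: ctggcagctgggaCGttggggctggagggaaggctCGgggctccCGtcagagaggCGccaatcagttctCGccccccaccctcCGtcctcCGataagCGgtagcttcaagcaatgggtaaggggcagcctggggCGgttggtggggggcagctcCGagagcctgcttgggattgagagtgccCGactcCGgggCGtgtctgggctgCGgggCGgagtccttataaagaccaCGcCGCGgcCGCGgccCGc

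Cd81, a widely expressed tetraspanin and a coreceptor for hepatitis C virus in human liver, was the most abundant gene of the Kcnq1 domain. It had 308 and 216 TPM in Bil_2D and 180 and 141 TPM in Hep_3D. The groups did not overlap on the TPM scale, yet it did not pass (log2 fold change -0.69, SE 0.24, limma adjusted p = 0.0658), except with a replicate block for clone (adjusted p = 0.0167). The direction turned by median of ratios, at 0.12 with a 95% interval of -0.45 to 0.70. Cdkn1c, the cell cycle inhibitor p57, had 2.83 and 0.843 TPM in Bil_2D and 1.29 and 0.638 TPM in Hep_3D, with overlap (log2 fold change -0.46, adjusted p = 0.418, and -0.01, adjusted p = 0.986, by median of ratios). Ascl2, a basic helix-loop-helix factor of trophoblast, stood at 0.775 and 0.109 TPM in Bil_2D, while both Hep_3D libraries listed it at 0. It was not tested.

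**Figure D4:**
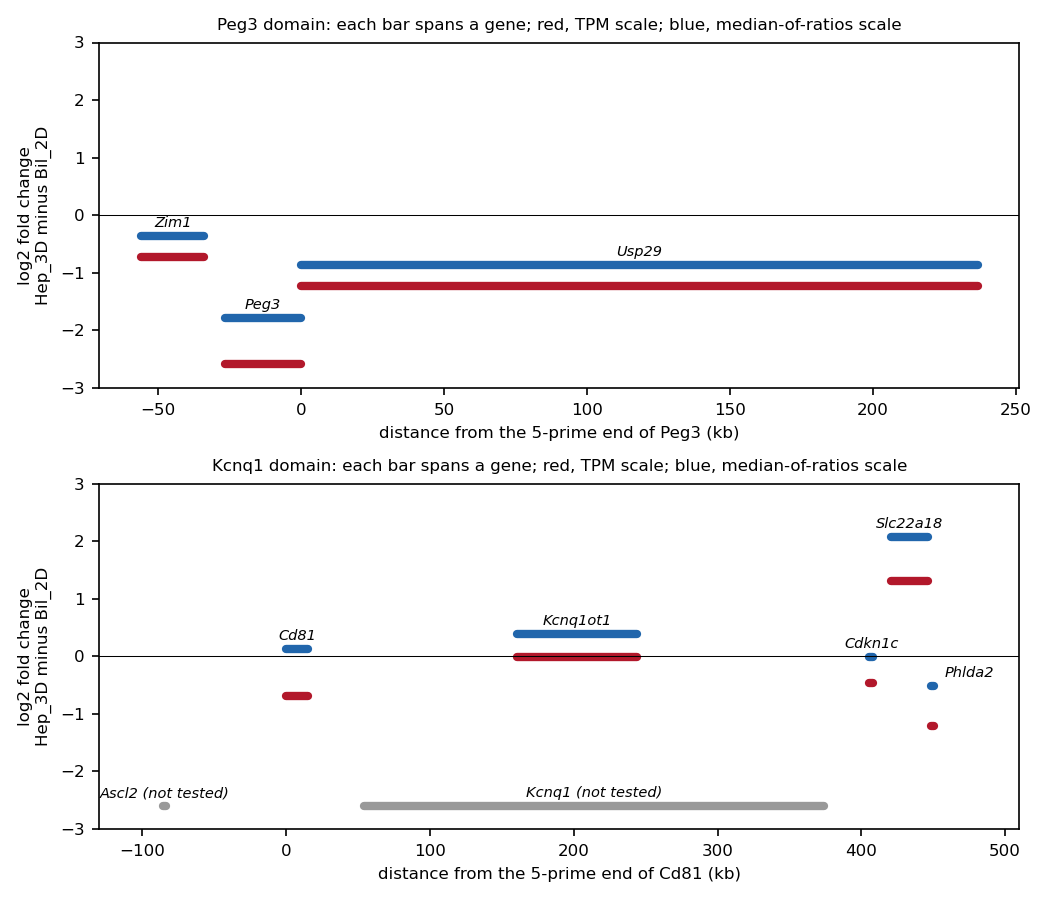
Log2 fold change (Hep_3D minus Bil_2D) against position in the Peg3 domain and the Kcnq1 domain, as distance in kb from the 5′ end of Peg3 or of Cd81; each bar spans a gene, in red on the TPM scale and in blue on the median-of-ratios scale, with genes that were not tested in grey at an arbitrary height. In the Peg3 domain all bars lie below 0, while in the Kcnq1 domain Slc22a18 lies above 0 on both scales beside Phlda2, which lies below 0 on both.

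In the Snrpn-Ube3a domain, the mouse counterpart of the Prader-Willi and Angelman region, the paternally expressed genes differed among themselves. Snrpn encodes SmN, a core protein of spliceosomal particles that is abundant in neurons (chromosome 7, 59982495 to 60450177). It had 4.34 and 4.62 TPM in Bil_2D and 5.63 and 7.26 TPM in Hep_3D, without overlap. It did not pass on the TPM scale (log2 fold change 0.43, SE 0.21, limma adjusted p = 0.134) and rose by 1.12 by median of ratios (SE 0.22, adjusted p = 0.0356), a call lost in each of the 4 leave-outs (0.069 to 0.174). Its paralog Snrpb, which encodes the SmB proteins and was chosen after its values were seen, had 342 and 362 TPM in Bil_2D and 136 and 126 TPM in Hep_3D. Reads could be split between such paralogs, so the level of Snrpn is uncertain. Ndn (necdin, a MAGE family protein) had 4.17 and 1.74 TPM in Bil_2D and 0.742 and 0.142 TPM in Hep_3D. It fell on the TPM scale (log2 fold change -1.42, adjusted p = 0.0466), a call lost in each leave-out (0.0545 without Bil_2D replicate 2 to 0.173 without Hep_3D replicate 2), with pseudocounts of 0.1 (0.0569) and 5 (0.0601) and without the filter (0.0764). By median of ratios it stood at -1.01 (adjusted p = 0.162), and with clone as a replicate block on that scale its adjusted p was 0.0485. Magel2, another MAGE family gene, was listed at 0 in all libraries but Bil_2D replicate 1, where it had 0.0730 TPM. Mkrn3 (a ring finger gene, 0.404 to 1.09 TPM) and Peg12 (0 to 0.811 TPM) were not tested. Ube3a, the ubiquitin ligase that is maternally expressed in neurons and biallelic in most other cells, had 27.5 and 21.6 TPM in Bil_2D and 20.1 and 16.7 TPM in Hep_3D. It did not pass on either scale and its direction turned between them (-0.39, adjusted p = 0.149, against 0.39, adjusted p = 0.181).

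Gnas, Blcap, Impact and Copg2 fell on the TPM scale by 0.69 to 0.89, beside a median of -0.73 over all genes, and none of them passed on the median-of-ratios scale. Gnas encodes the stimulatory G protein alpha subunit and, from other promoters, further transcripts that the table does not separate (chromosome 2, 174284320 to 174346744). It had 531 and 487 TPM in Bil_2D and 295 and 265 TPM in Hep_3D, the highest level of the 36 genes in every library. The mean was 509 ± 31.2 TPM against 280 ± 21.3 TPM (SD, n = 2), so that Gnas fell by 0.86 (SE 0.13, adjusted p = 0.00985 in limma). Its median-of-ratios fold change was -0.05, with a 95% interval of -0.39 to 0.30. Impact, which encodes an inhibitor of the eIF2 kinase GCN2, had 25.9 and 28 TPM in Bil_2D and 15.3 and 13.1 TPM in Hep_3D (log2 fold change -0.89, adjusted p = 0.0128). Its median-of-ratios value was -0.11, with an interval of -0.53 to 0.31. Blcap, a small membrane protein gene, had 53.4 and 37.2 TPM in Bil_2D and 25.6 and 23.5 TPM in Hep_3D (-0.84, adjusted p = 0.032, against -0.04 with an interval of -0.57 to 0.48). Copg2, a coat protein gene of transport vesicles, had 14.1 and 13.6 TPM in Bil_2D and 8.07 and 8.33 TPM in Hep_3D (-0.69, adjusted p = 0.022, against 0.056 with an interval of -0.36 to 0.47). The TPM-scale calls of Gnas were lost without Bil_2D replicate 1 (0.0579), Bil_2D replicate 2 (0.0513) and Hep_3D replicate 2 (0.0513), and those of Impact without the same libraries (0.0649, 0.0759 and 0.0586). Blcap lost its call without Bil_2D replicate 1 (0.107), Hep_3D replicate 1 (0.0978) and Hep_3D replicate 2 (0.129) and without the filter (0.0528), and Copg2 in each leave-out (0.0798 without Hep_3D replicate 1 to 0.112 without Bil_2D replicate 1).

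The partners that share a domain with these genes were low. Nnat, a paternally expressed proteolipid gene that lies within Blcap on the other strand, had 3.29 and 4.05 TPM in Bil_2D and 3.69 and 1.93 TPM in Hep_3D, with overlap (log2 fold change -0.33, adjusted p = 0.398 in limma). Its direction turned by median of ratios (0.29, adjusted p = 0.551). Mest, a paternally expressed hydrolase-fold gene whose end overlaps that of Copg2 by 913 bases, had 1.05 and 0.891 TPM in Bil_2D and 0.197 and 0.354 TPM in Hep_3D. It was under the filter and was not tested. As the strand setting is not given, reads of Nnat and Blcap, or of Mest and Copg2, cannot be told apart where they overlap.

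Grb10 and Airn stood lower in Hep_3D on both scales. Grb10 encodes an adaptor that binds and restrains the insulin and insulin-like growth factor receptors and is maternally expressed in most tissues (chromosome 11, 11930499 to 12037428). It had 23.2 and 31.2 TPM in Bil_2D and 3.91 and 10.2 TPM in Hep_3D, and clone 19H5 was the higher in each state. The mean fell 3.85-fold, to 7.07 ± 4.47 from 27.2 ± 5.62 TPM (SD, n = 2), a log2 fold change of -1.91 (SE 0.45, adjusted p = 0.0257 in limma). That call was lost without Bil_2D replicate 1 (0.0847) and Bil_2D replicate 2 (0.114). By median of ratios it stood at -1.16 (SE 0.49, adjusted p = 0.164; 0.0566 with clone as a replicate block), and at -0.52 without Hep_3D replicate 1. Airn, the paternally expressed noncoding RNA that silences Igf2r in cis (chromosome 17, 12741311 to 12859884), had 9.48 and 8.97 TPM in Bil_2D and 2.88 and 2.90 TPM in Hep_3D. Airn fell by 1.39 (SE 0.18, adjusted p = 0.00724), with an adjusted p of 0.0505 without Bil_2D replicate 1. It missed the threshold by median of ratios at -0.71 (adjusted p = 0.0537). Airn overlaps Igf2r, which is read from the other strand, over 28396 bases. Igf2r had 99.9 and 102 TPM in Bil_2D and 34.3 and 26.2 TPM in Hep_3D, and the ratio of Airn to Igf2r was 0.095 and 0.088 in Bil_2D and 0.0839 and 0.111 in Hep_3D. Whether unspliced Igf2r reads were counted as Airn was not tested. Slc22a3, a placental target of Airn, was at most 0.0407 TPM in any library.

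The 5 listed genes of the Dlk1-Meg3 domain were each under 1 TPM in all 4 libraries. Dlk1, a Notch-like membrane protein of fetal liver progenitors, was at most 0.236 TPM, and Rtl1, a retrotransposon-derived gene, at most 0.0646 TPM. The maternally expressed noncoding RNAs Meg3, Rian and Mirg reached at most 0.173, 0.0888 and 0.284 TPM. None of these 5 genes was tested. The table also had 60 microRNA rows lying between Dlk1 and the end of Mirg, and 1 each within Mest and Usp29. All 62 were listed at 0 in every library, as were 937 of the 1145 microRNA rows of the whole table. Dio3, a thyroid hormone deiodinase gene 530 kb beyond Mirg at the other end of the domain (chromosome 12, 110279230 to 110281097), had 68.4 and 23.1 TPM in Bil_2D and 0.229 and 0.123 TPM in Hep_3D. It fell on both scales (log2 fold change -5.12 by TPM, adjusted p = 0.00606, and -4.65 by median of ratios, adjusted p = 0.0129, both in limma). The second of these calls was lost when Hep_3D replicate 1 (0.0681) or replicate 2 (0.0768) was left out.

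The remaining domains were low as well. In the Peg10-Sgce domain, Peg10, a retrotransposon-derived gene of placenta and liver tumours, was at most 0.276 TPM. Sgce (epsilon-sarcoglycan), whose start lies beside that of Peg10, had 1.11 and 0.614 TPM in Bil_2D and 1.59 and 0.413 TPM in Hep_3D. Its groups overlapped and it did not pass (log2 fold change 0.05, adjusted p = 0.913 in limma, and 0.42, adjusted p = 0.501, by median of ratios). Ppp1r9a (neurabin) was at most 0.268 TPM. Plagl1, a zinc finger transcription factor known as a regulator of other imprinted genes, had 0.883 and 0.545 TPM in Bil_2D and 0.353 and 0.145 TPM in Hep_3D. Zdbf2 was at most 0.0521 TPM, and Rasgrf1, an exchange factor of the Ras pathway, had 0.200 TPM in Hep_3D replicate 1 and was listed at 0 in the other three libraries.

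Grouped by parental allele, 9 of 19 paternally expressed genes and 8 of 15 maternally expressed genes were tested. On the TPM scale 5 paternally expressed genes fell (Peg3, Usp29, Airn, Ndn and Impact) and 0 rose, and 3 maternally expressed genes fell (Copg2, Grb10 and Phlda2) and 0 rose, beside 51.9% and 6.8% of all genes. On the median-of-ratios scale 1 paternally expressed gene fell and 1 rose, and 0 maternally expressed genes fell and 1 rose, beside 9.54% and 11.9% of all genes. The median log2 fold change on that scale was -0.11 for the paternally and 0.02 for the maternally expressed genes, beside -0.02 for all genes. The summed level of the paternally expressed genes was 560 and 349 TPM in Bil_2D and 106 and 82.3 TPM in Hep_3D, most of it Peg3. That of the maternally expressed genes was 414 and 301 TPM against 258 and 216 TPM, most of it Cd81. The grouping follows known alleles, which can depend on the tissue, as for Ube3a. Which allele was expressed in these cells was not measured.

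A second comparison set clone 19H5 against clone 15C7, with cell state as a term and 1 residual degree of freedom. In limma 0 of the 19 genes were called on either scale, as were 0 of all genes (0%). At an unadjusted p under 0.05 there were 6 of the 19, beside 13% of all genes: Peg3, Zim1, Grb10, Cd81, Cdkn1c and Ndn. Of these, Grb10 was higher in 19H5 and the others were higher in 15C7. Zim1 was 6.05 times higher in 15C7 than in 19H5 in Bil_2D and 5.71 times higher in Hep_3D. For Cdkn1c the ratio was 3.36 and 2.02, for Ndn 2.39 and 5.22, and for Peg3 1.70 and 1.35. Clone 15C7 had the higher TPM in both states for 12 of the 19 genes, beside 40% of all genes tested, and 19H5 for 2 (Grb10 and Snrpn), beside 22.9%. Each ratio rests on 1 library per clone and state.

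A list of 24 chromatin factors that keep, set or remove the marks of imprinted genes was also read out, and 20 were tested. Besides maintenance factors it holds de novo DNA methyltransferases (Dnmt3a), demethylating enzymes (Tet2 and Tet3) and the histone demethylase Kdm1b. On the TPM scale 17 fell and 0 rose, beside 51.9% and 6.8% of all genes, with a median log2 fold change of -1.07 beside -0.73. On the median-of-ratios scale 4 fell (Trim28, Dnmt1, Ezh2 and Hells) and 0 rose, beside 9.54% and 11.9% of all genes, with a median of -0.37 beside -0.02. With a replicate block for clone on that scale Hells lost its call (adjusted p = 0.0554 in limma) and 3 of the 20 fell. Dnmt1, the maintenance DNA methyltransferase, had 59.4 and 52.3 TPM in Bil_2D and 14.1 and 7.01 TPM in Hep_3D, and its partner Uhrf1, which reads hemimethylated DNA, had 29.8 and 43.5 TPM against 6.49 and 1.62. Their log2 fold changes were -2.36 (adjusted p = 0.0088 in limma) and -3.06 (adjusted p = 0.0139) by TPM, and -1.59 (adjusted p = 0.0409) and -2.35 (adjusted p = 0.0595) by median of ratios. Ezh2, the histone methyltransferase of Polycomb, and Hells, a chromatin remodeller needed for DNA methylation, had log2 fold changes of -2.76 and -2.87 by TPM and -2.02 and -2.15 by median of ratios. Zfp57, the zinc finger protein that recognises methylated imprinting control regions, had 19.6 and 15.2 TPM in Bil_2D and 9.55 and 2.86 TPM in Hep_3D and did not pass (-1.52, adjusted p = 0.0677, and -0.79, adjusted p = 0.339, by median of ratios), except on the TPM scale with clone as a replicate block (0.0295) and without Hep_3D replicate 1 (0.0312). Its cofactor Trim28 had 157 and 154 TPM against 56.2 and 51.3 TPM and fell on both scales (-1.51 and -0.71).

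**Figure D5:**
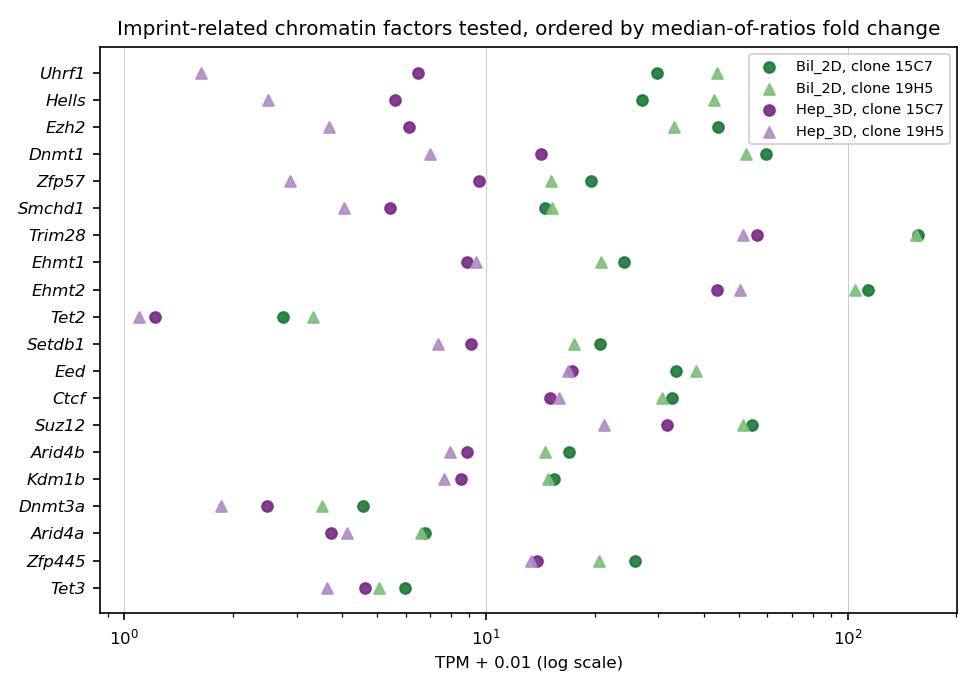
TPM + 0.01 on a log axis for the 20 imprint-related chromatin factors tested, in each of the 4 libraries (green, Bil_2D; purple, Hep_3D; circles, clone 15C7; triangles, clone 19H5), ordered by median-of-ratios fold change. Both Hep_3D libraries lie below both Bil_2D libraries for all 20 genes on this TPM axis, beside 71.9% of all genes (by median of ratios 13 of the 20 were lower without overlap, beside 34.7%, and 1 was higher), and the gap is widest for Uhrf1, Hells, Ezh2 and Dnmt1.

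The number of these factors that fell was 5 and 4 when Bil_2D replicates 1 and 2 were left out in turn, and 13 and 10 when those of Hep_3D were. Without Bil_2D replicates 1 and 2 in turn the TPM-scale adjusted p of Uhrf1 was 0.0608 and 0.0747 and that of Dnmt1 0.0562 and 0.0522, and that of Hells was 0.0521 without Bil_2D replicate 2. By median of ratios the calls of Trim28 (0.0872 to 0.159) and Hells (0.0646 to 0.188) were lost in each leave-out, and those of Dnmt1 and Ezh2 held only without Hep_3D replicate 1 (0.0348 and 0.0421). Several of these factors are expressed mainly in dividing cells. A list of 10 proliferation genes (Mki67, Top2a and Pcna among them) was chosen after seeing the values, so its counts are description only and test nothing. All 10 fell on the TPM scale, beside 51.9% of all genes, and 7 by median of ratios, beside 9.54%. Fewer of these genes fell, on both scales, when either Bil_2D library was left out. Their summed level was 774 and 932 TPM in Bil_2D and 151 and 84.6 TPM in Hep_3D. Their part in the result was not tested.

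A second list held 30 further imprinted genes, of which 19 were tested. On the TPM scale 7 fell and 1 rose (Pon3, named after its value was seen), and on the median-of-ratios scale 3 fell (Dio3, Igf2r and Osbpl5) and 1 rose (Pon3). Of all genes 51.9% fell and 6.8% rose on the first scale, and 9.54% and 11.9% on the second. The median log2 fold change of the 19 was -0.72 and 0.05 on the 2 scales, beside -0.73 and -0.02 for all genes. Osbpl5, a lipid transfer protein gene of the Kcnq1 region, had 18.1 and 14.4 TPM in Bil_2D and 3.64 and 4.01 TPM in Hep_3D (log2 fold change -1.83, and -1.12 by median of ratios). Ddc, the aromatic amino acid decarboxylase gene next to Grb10, had 29.7 and 17.5 TPM against 4.91 and 7.13 TPM (-1.78, and -1.03, adjusted p = 0.0913 in limma, by median of ratios), a TPM-scale call lost without Bil_2D replicate 1 (0.0604) and Hep_3D replicate 1 (0.0667). Igf2r, the mannose 6-phosphate receptor that clears IGF2, fell by 1.72 on the TPM scale and by 0.91 by median of ratios (adjusted p = 0.0058 and 0.0317 in limma). Pon3, a paraoxonase gene near Peg10, had 35.8 and 38.5 TPM in Bil_2D and 63.4 and 51 TPM in Hep_3D (0.60, adjusted p = 0.0357, and 1.40, adjusted p = 0.0131, by median of ratios). Its TPM-scale call was lost in each leave-out (0.0516 to 0.148), and so were the median-of-ratios calls of Igf2r (0.0609 to 0.177), Osbpl5 (0.088 to 0.154) and Pon3 (0.0528 to 0.0956).

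Promoter sequence was read for the 30 of the 36 genes that have a RefSeq window of 250 bases before to 50 bases after a start, with several windows for some. The hexamer TGCCGC, the core that ZFP57 binds when methylated, was searched on both strands. At least 1 match was present in a window of 9 of the 30 genes (30%), which include genes that were not tested. Of the 17770 measured genes with a window 16% had a match, and of the 9568 tested ones 22.3%. Among the imprinted genes a match was present for 5 of 15 paternally and 4 of 13 maternally expressed genes. Zdbf2 had 3 matches in a window and Mest 2. Zim1, Snrpn, Grb10, Plagl1, Copg2, Nnat and Meg3 had 1 each. The windows of Peg3, Usp29, Slc22a18, Phlda2 and Airn had 0, which says only that these letters are not in these windows. A match is a description of the sequence and no binding was measured here.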

How the data were processed

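RNA was sequenced from 4 cultures. Extraction used a column kit (Qiagen RNeasy) and a company, Novogene, made the libraries, per the labels' protocols. The authors deposited TPM, 1 column per library. Salmon, DESeq2 and mm10 are named, without versions or roles, in the submitters' processing notes, and the annotation and strand setting are not given in the sources used here. TPM keeps no depth, so counting error is unknown and no count model was fitted.

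Groups and clones came from titles and labels. The 12336 genes that reached 1 TPM in 2 or more libraries were fitted on log2(TPM + 1), a scale that understates changes of low genes, with limma 3.58.1 (R 4.3.3; lmFit, then eBayes with a trend). The state comparison left 2 residual degrees of freedom (prior 2.29), and the clone comparison, with state as a term, 1. Benjamini-Hochberg adjustment ran over every gene tested, and a gene was called under 0.05. The median-of-ratios scale was set on the 10434 genes that reached 1 TPM in all libraries, and set the groups apart by 0.82 log2 units. Intervals are 95% intervals from limma. With 2 libraries a group, the smallest p of an exact permutation test is 0.333. The code was tested on simulated data. In each leave-out a group's lone library was assumed to be as variable as the other group.

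Clone numbers in the labels pair the libraries: across genes, libraries of the same clone deviated together from the group means (r = 0.414). The reported values have no block.

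Members reaching 5 TPM in a library are given with values and tests, others by values or range. From each of the 2 further lists the 4 called genes with the largest change are named, with Trim28 and Zfp57 added. Members and lists were chosen with earlier results of these data known, and parental alleles were assigned from general knowledge. Positions and sequences are RefSeq's for GRCm38.p6, the assembly that mm10 corresponds to.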

Additional observations from a re-analysis of the deposited data

How the results depend on the processing

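With 2 libraries per group, depth unknown and 58.7% of genes called, calls depended on the scale and on single libraries. The count of imprinted genes lower in Hep_3D, 10, was 1 on the median-of-ratios scale, 2 after quantile normalization, 2 with the 50 most abundant genes left out, 6 with a minimum log2 fold change of 1, 2 on the median-of-ratios scale with clone as a replicate block, and 0 to 6 in the leave-outs on both scales. The count higher, 0, was 2, 2, 1, 0 and 2 in the same order, 1 with clone as a replicate block, and 0 to 1 in the leave-outs. Imprint-related factors called, 17, numbered 4, 6, 8, 10 and 3 in that order and 0 to 13 in the leave-outs, and the further imprinted genes called, 8, numbered 4 and 5 on the first 2 of these scales and 0 to 7 in the leave-outs. Over all genes the count, 7241, was 2642, 3104, 3367, 4564 and 3193 in that order, 8150 with the replicate block, and 188 to 4537 in the leave-outs. Between clones 1 gene was called with the 50 most abundant genes left out. The leave-outs on the median-of-ratios scale were added after seeing the data. The replicate block on the TPM scale gave calls to Slc22a18 and Cd81 and changed no other call among the 15 imprinted genes followed here. Directions turned for 6 of these. For Copg2 the log2 fold change by median of ratios was 0.056 with or without the block, and -0.71 to 0.10 in the leave-outs. Cd81 stood at 0.12 with or without the block and at -0.94 to 0.34. Ube3a stood at 0.39 with or without the block, 0.30 after quantile normalization, 0.14 with the 50 most abundant genes left out, and -0.56 to 0.52 in the leave-outs. In the leave-outs Gnas ranged from -0.94 to 0.00389, Blcap from -1.09 to 0.17 and Zim1 from -1.47 to 0.27. Leaving out libraries halved a group, and other causes were not tested. The clone comparison has no residual degrees of freedom without a library, so it was not tested there.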

Other observations

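Dcn and Slc38a4, imprinted genes of the second list singled out after their values were seen, were high in a single library. Dcn, the proteoglycan decorin, had 2.38 TPM in Bil_2D replicate 1, was listed at 0 in Bil_2D replicate 2, and had 178 and 2.79 TPM in Hep_3D replicates 1 and 2. Slc38a4, an amino acid transporter gene of liver and placenta, had 5.12 and 0.1 TPM in Bil_2D and 60.5 and 2.37 TPM in Hep_3D. For both, clone 15C7 was the higher in each state, and neither passed on the TPM scale without the clone block (adjusted p = 0.163 and 0.256 in limma; 0.0479 and 0.0244 with clone as a replicate block). The 13 mesenchymal markers summed to 2.41 TPM in Hep_3D replicate 1 and 1.07 TPM in Hep_3D replicate 2. Their sum was 2.74 TPM in Bil_2D replicate 1, where Dcn had 2.38 TPM, and 1.46 TPM in Bil_2D replicate 2. Their part in the level of Dcn was not tested.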
